A study of Mus musculus with 8 samples.

Results

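Toll-like receptors let cells recognise molecules of microbes, and 8 of their genes (Tlr1, Tlr2, Tlr4, Tlr5, Tlr6, Tlr7, Tlr9 and Tlr13) were examined here with the adaptor gene Myd88 and the co-receptor gene Cd14. These 10 genes were taken by symbol from a table of 38392 genes, and each was found once. Expression had been measured by RNA sequencing in cells sorted as eosinophils, granulocytes produced in the bone marrow, many of which home to the wall of the gut. Cells were sorted from female wildtype mice of the C57/BL6 strain, and neither group had been treated. The bone marrow group held 4 libraries of cells gated as CD11b+ Ly6G- Ly6C- SiglecF+ with high side scatter, and the small intestine group 4 libraries gated as CD11b+ MHC-II- SiglecF+ with high side scatter. The comparison asked how eosinophils living in the intestine differ from those at their site of origin. Intestinal cells were freed by warm enzymatic digestion and enriched on CD11b beads, whereas bone marrow was flushed and sorted directly, so tissue and handling changed together and cannot be told apart. The ages of the mice in these libraries are not given in the labels. Each group came from 4 mice, and the libraries were counted as biological replicates.

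Receptors of this family fall into those that sit at the cell surface and sense bacterial envelopes or flagella (Tlr1, Tlr2, Tlr4, Tlr5 and Tlr6) and those that sit in endosomes and sense nucleic acids (Tlr7, Tlr9 and Tlr13). Tlr2 works as a heterodimer with Tlr1 or Tlr6, and Tlr4 binds lipopolysaccharide with its partner Ly96 after Cd14 has handed the lipid over. All 8 receptors signal through Myd88, which gathers Irak kinases and Traf6 and leads to the activation of NF-kappaB. In the intestine such receptors meet the products of a dense microbiota.

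Values below are normalised counts, which are the reads recovered from the deposited values divided by the size factor of their library. Reads assigned to genes ranged from 11508002 to 21289164 over the 8 libraries. The cell type was checked against marker lists. The 5 eosinophil markers summed to between 2349 and 3323 in bone marrow and between 16954 and 25122 in small intestine, with 3 higher and 2 lower. The granule genes Epx and Prg2 were lower in small intestine (means of 350 in bone marrow against 20.6, and 1831 against 147), and the surface receptor genes Siglecf, Ccr3 and Il5ra were higher (580 against 3076, 70.9 against 16351 and 11.04 against 1107). In bone marrow 7 markers of neutrophil precursors summed to between 310536 and 397313, with Mpo alone between 127019 and 174314, against 422 to 522 in small intestine. Ly6c2, which encodes an antigen of the gate that should be absent, was between 6630 and 9609 in bone marrow and between 12.03 and 20.15 in small intestine. The markers of the bone marrow libraries thus go against their label in all 4 of them, no result can be given without these, and the groups are called by tissue below. For the 10 markers of monocytes and macrophages, sums ran from 7061 to 10108 in bone marrow, against 1777 to 2762 in small intestine. Nearly all of the bone marrow sum was Ly6c2, the only marker of this list called lower. Of the others, 7 were called higher, and Csf1r had the largest intestinal mean of them (190 against 1301). Mrc1 and Fcgr1 did not pass the test. The fall of the sum thus does not show less macrophage RNA in the intestinal libraries. In small intestine, 8 of 8 epithelial markers were higher and summed to between 4106 in SI_10 and 32928 in SI_6, against 73.7 to 101 in bone marrow. Stromal and endothelial markers were higher for 6 of 6 genes (368 to 482 in bone marrow, 8005 to 10005 in small intestine), most of it Pecam1, which leukocytes also express (mean 8162, against 73.8 for Col1a1 and 82.7 for Dcn), and 13 of 13 genes that respond to tissue dissociation were higher (1013 to 1330 against 89585 to 117904). Whether any of these other cells or the handling had a part in the results below was not tested. In bulk libraries fewer cells of a type and less RNA per cell cannot be told apart.

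The 2 groups of libraries carried different sets of these transcripts. The small intestine libraries had 116-fold more Tlr13, 14.4-fold more Tlr6 and 13.7-fold more Cd14 than the bone marrow libraries, and 5.40-fold less Tlr4. Of the 10 genes, 6 rose in the small intestine (Tlr13, Tlr6, Cd14, Tlr9, Tlr5 and Myd88), 3 fell (Tlr4, Tlr7 and Tlr2) and Tlr1 did not pass the test. Genes were tested with limma on the deposited log2 values, with Benjamini-Hochberg adjustment over all 38392 genes and a threshold of 0.05. By that rule 34.9% of all genes were called, 22.0% as higher and 12.9% as lower in the small intestine, and among the 16215 genes that averaged 10 or more reads, which include all 10 members, 63.1% were called. The libraries of the tissues did not overlap for 8 of the 10 genes, against 34.3% of all genes and 67.4% of those that averaged 10 or more reads. The median difference was 0.86 log2 units over the members, 0.37 over all genes and 0.12 over the genes averaging 10 or more reads. When each library was centred on its median over all genes, the median difference of all genes moved by -0.90 to -0.53, and the share of calls that were higher in the small intestine moved from 63.2% to 29.5%. Genes with reads numbered between 19713 and 30886 in bone marrow and between 26624 and 33346 in small intestine. A median over all genes therefore also depends on how many genes are detected. Centring on genes averaging 10 or more reads moved the median difference by -0.06 to 0.31, with 59.5% of calls higher. Quantile normalisation gave 45.8%. Tlr5 and Tlr9 lost their calls with centring on all genes (limma adjusted p = 0.876 and 0.522) and with quantiles (0.918 and 0.326). They kept them with centring on genes averaging 10 or more reads (0.0329 and 0.0401). Myd88 turned to -0.18 with centring on all genes (limma adjusted p = 0.777).

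**Figure D1:**
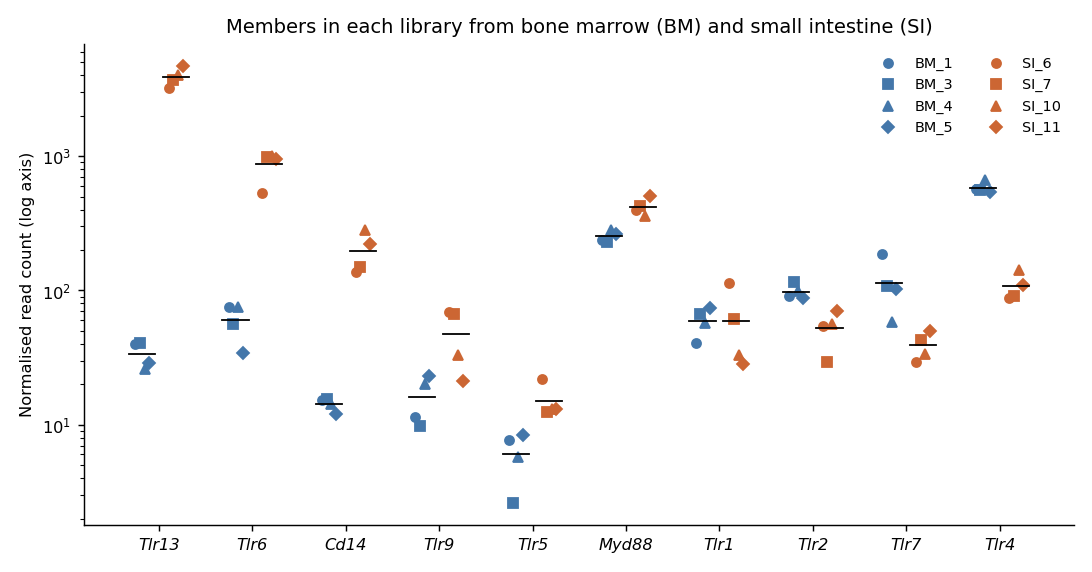
Normalised read counts (log axis) of the 10 genes in each library, with bone marrow in blue, small intestine in orange, a black line at the mean of 4 libraries and genes ordered by their difference. Tlr13 was between 25.8 and 40.4 in bone marrow and between 3228 and 4713 in small intestine, whereas Tlr1 and Tlr9 overlapped between the tissues.

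Tlr13, an endosomal receptor for bacterial ribosomal RNA (ENSMUSG00000033777, chrX:106143204-106160493, plus strand, GRCm38), made the largest difference of the 10. Its normalised counts were 39.8, 40.4, 25.8 and 28.8 in BM_1, BM_3, BM_4 and BM_5, and 3228, 3696, 4062 and 4713 in SI_6, SI_7, SI_10 and SI_11. Every intestinal library was far above every bone marrow library, and the spread within each tissue was small beside the gap. The mean rose from 33.7 ± 7.50 to 3925 ± 627 (SD, n = 4 each). The difference of 6.72 ± 0.22 log2 units (SE; limma adjusted p = 4.77e-07) ranked 166 from the top among 38392 genes. The rise held in all 17 alternative settings. Among the intestinal libraries Tlr13 was lowest in SI_6, which had the highest epithelial (32928) and macrophage (2762) marker sums of the 4. Retnlg rose in the same order as Tlr13 and made up nearly all of the sum of mature neutrophil markers. This sum was 38277, 42289, 49674 and 55078 in SI_6, SI_7, SI_10 and SI_11. Of the same list, Ly6g was called lower in small intestine (mean of 92.1 in bone marrow against 1.71). Cxcr2 (741 and 599) and Stfa2l1 (1.05 and 4.23) did not pass the test, and Mmp8 was called higher (22.1 and 49.7). Of the eosinophil markers, Siglecf (2646, 2848, 2990 and 3820), Il5ra and Prg2 rose in the same order as Tlr13, and Ccr3 and Epx did not. Whether any of these cells had a part in the level of Tlr13 was not tested.

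Promoters were read from RefSeq (GRCm38.p6), and the table used here was matched for 7 of 9 members, with 2 entries each for Tlr1 and Tlr6. Tlr4 and Tlr7 were not matched, and Cd14 was not searched. In the 250 bases before each start site, both strands were searched for 4 motifs, namely kappaB (GGGNNNNNCC, held by 45.8% of the 32851 promoters of the table), AP-1 (TGANTCA, 6.75%), ETS (GAGGAAG, 10.6%) and the interferon response element (GAAANNGAAA, 2.98%), and 56.9% held at least 1 of them. A match is a description of letters and was not tested as a site. The stretches printed are those of the genes with the largest rises, and of Tlr2, whose partner Tlr6 rose while it fell. Each ends before the first base of an annotated exon, with matches in capitals. The Tlr13 stretch (chrX:106143025-106143203, plus strand) held an ETS match that began 83 bases before the start site.
Tlr13: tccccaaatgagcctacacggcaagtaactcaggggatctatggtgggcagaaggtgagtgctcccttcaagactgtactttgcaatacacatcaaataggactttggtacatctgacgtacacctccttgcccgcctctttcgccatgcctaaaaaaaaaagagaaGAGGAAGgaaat

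The Tlr2 family of surface receptors changed unequally. Tlr6, which with Tlr2 recognises diacylated lipopeptides (ENSMUSG00000051498, chr5:64952031-64960097, minus strand), had normalised counts of 75.9, 56.1, 75.6 and 34.4 in BM_1, BM_3, BM_4 and BM_5, and 535, 992, 1003 and 954 in SI_6, SI_7, SI_10 and SI_11. All intestinal libraries were above all bone marrow libraries, and SI_6 stood below the other intestinal ones. Tlr6 rose from 60.5 ± 19.7 to 871 ± 225 (SD, n = 4 each), a difference of 3.78 ± 0.32 log2 units (SE; limma adjusted p = 4.51e-05).

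Tlr2, the shared partner (ENSMUSG00000027995, chr3:83836272-83841767, minus strand), had 91.2, 115, 98.6 and 88.3 in BM_1, BM_3, BM_4 and BM_5, and 54.6, 29.1, 55.8 and 69.9 in SI_6, SI_7, SI_10 and SI_11. The tissues did not overlap, although SI_11 and BM_5 were close. Tlr2 fell from 98.2 ± 11.9 to 52.4 ± 17.0 (SD, n = 4 each), a difference of -0.91 ± 0.27 log2 units (SE; limma adjusted p = 0.0308). The call was lost without BM_1 (adjusted p = 0.0622), BM_3 (0.0814), BM_4 (0.0708) or SI_10 (0.0504), with differences between -0.96 and -0.84.

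Tlr1, which with Tlr2 recognises triacylated lipopeptides (ENSMUSG00000044827, chr5:64924679-64933563, minus strand), had 40.6, 66.5, 57.4 and 74.4 in BM_1, BM_3, BM_4 and BM_5, and 115, 61.0, 32.8 and 28.4 in SI_6, SI_7, SI_10 and SI_11. The intestinal libraries lay on both sides of the bone marrow libraries, with SI_6 the highest. SI_6 and SI_7 also had the largest sums of epithelial markers (32928 and 14098, against 4106 in SI_10 and 5590 in SI_11). The same held for B and plasma cell markers (2655 and 2130, against 427 and 1144) and macrophage markers (2762 and 2048, against 1777 and 2021). The part of these cells was not tested. Means were 59.7 ± 14.5 and 59.2 ± 39.6 (SD, n = 4 per tissue, bone marrow given before small intestine), and the difference of -0.18 log2 units had a 95% confidence interval from -1.15 to 0.79 (limma adjusted p = 0.762), which does not show that the tissues were alike. Its sign turned without SI_10 (0.013) or SI_11 (0.075). Tlr1 and Tlr6 are neighbours on chromosome 5 and near copies in part of their sequence. Of all words of 75 bases in their transcripts, the shortest read length used, 340 were shared, which is 10.3% of those of Tlr1 and 9.25% of those of Tlr6, so reads from these stretches are uncertain. No other pair among the 14 genes compared (12 receptors, Myd88 and Cd14) shared such a word.

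In the 250 bases before their start sites, Tlr2 held a kappaB match on both strands, Tlr6 a kappaB match before its outer start and overlapping interferon response matches before its inner start, and Tlr1 an ETS match before its outer start. The stretches are Tlr2 at chr3:83841768-83841858, Tlr6 outer at chr5:64960098-64960298 and Tlr6 inner at chr5:64959167-64959416, all on the minus strand.
Tlr2: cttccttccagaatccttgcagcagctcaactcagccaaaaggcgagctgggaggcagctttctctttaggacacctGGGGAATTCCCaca
Tlr6 outer: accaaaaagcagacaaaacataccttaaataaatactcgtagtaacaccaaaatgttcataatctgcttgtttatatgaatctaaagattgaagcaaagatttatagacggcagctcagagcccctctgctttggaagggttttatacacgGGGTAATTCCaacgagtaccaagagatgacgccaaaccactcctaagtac
Tlr6 inner: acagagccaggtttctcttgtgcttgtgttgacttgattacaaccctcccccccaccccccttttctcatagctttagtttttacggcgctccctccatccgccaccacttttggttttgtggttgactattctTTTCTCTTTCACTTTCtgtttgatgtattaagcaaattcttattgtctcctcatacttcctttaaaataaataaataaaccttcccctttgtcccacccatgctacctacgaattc

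Tlr4, the receptor for lipopolysaccharide (ENSMUSG00000039005, chr4:66827584-66930284, plus strand), fell in the intestine. Its normalised counts were 573, 556, 664 and 537 in BM_1, BM_3, BM_4 and BM_5, and 87.3, 91.5, 142 and 110 in SI_6, SI_7, SI_10 and SI_11. Every bone marrow library was above every intestinal library. The mean fell from 583 ± 56.3 to 108 ± 25.0 (SD, n = 4 each), a difference of -2.41 ± 0.21 log2 units (SE; limma adjusted p = 5.47e-05) that ranked 926 from the bottom among 38392 genes.

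Cd14, the lipid-anchored co-receptor that passes lipopolysaccharide to Tlr4 (ENSMUSG00000051439), moved the other way. It had 15.3, 15.7, 14.4 and 12.1 in BM_1, BM_3, BM_4 and BM_5, and 138, 150, 280 and 221 in SI_6, SI_7, SI_10 and SI_11. The tissues did not overlap, and SI_10 was the highest intestinal library for both Tlr4 and Cd14. Cd14 rose from 14.4 ± 1.61 to 197 ± 66.4 (SD, n = 4 each), a difference of 3.43 ± 0.26 log2 units (SE; limma adjusted p = 2.44e-05). The calls of Tlr4 and Cd14, like those of Tlr6 and Tlr13, held in all 17 alternative settings.

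Transcripts of other proteins that present lipopolysaccharide also differed between the tissues, in both directions. Ly96, the subunit of the Tlr4 complex that holds the lipid, had 0.766, 7.83, 13.4 and 8.37 in BM_1, BM_3, BM_4 and BM_5, and 45.9, 31.9, 25.2 and 34.4 in SI_6, SI_7, SI_10 and SI_11. It rose by 1.98 ± 0.46 log2 units (SE; limma adjusted p = 0.0103), a call lost with centring on the median of all genes (0.0590) and with quantile normalisation (0.0761). Lbp, a protein that carries lipopolysaccharide to Cd14, fell from 3442 ± 182 to 39.5 ± 5.82 (SD, n = 4 each), a difference of -6.32 ± 0.18 log2 units (limma adjusted p = 2.57e-07). Of the 5 genes listed for ligand binding and co-receptors, 3 rose, Lbp fell and Cd180 did not pass the test. Among all genes averaging 10 or more reads, 34.6% were called higher and 28.6% lower.

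Tlr5, the receptor for flagellin (ENSMUSG00000079164, chr1:182954788-182976044, plus strand), was the least abundant of the 10 genes in both tissues. It had 7.66, 2.61, 5.74 and 8.37 in BM_1, BM_3, BM_4 and BM_5, and 21.8, 12.5, 13.1 and 13.0 in SI_6, SI_7, SI_10 and SI_11. The tissues did not overlap. SI_6 was the highest, and it also had the largest intestinal sums of epithelial, macrophage, and B and plasma cell markers. Tlr5 rose from 6.10 ± 2.58 to 15.1 ± 4.48 (SD, n = 4 each), a difference of 1.01 ± 0.29 log2 units (SE; limma adjusted p = 0.0253). The call was lost without BM_4 (adjusted p = 0.0601) or SI_6 (0.0536), and with limma trend (0.108) or voom (0.0571). The 250 bases before its start site held a kappaB match.

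Among the endosomal receptors, Tlr7 fell while Tlr13 and Tlr9 rose. Tlr7, a sensor of RNA (ENSMUSG00000044583, chrX:167304929-167330558, minus strand), had 188, 108, 58.4 and 102 in BM_1, BM_3, BM_4 and BM_5, and 29.5, 43.0, 33.9 and 49.8 in SI_6, SI_7, SI_10 and SI_11. BM_4 was the lowest bone marrow library and still lay above all intestinal ones. Tlr7 fell from 114 ± 53.9 to 39.0 ± 9.11 (SD, n = 4 each), a difference of -1.37 ± 0.35 log2 units (SE; limma adjusted p = 0.0148). The adjusted p was 0.0522 without SI_10.

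Tlr9, which senses DNA with unmethylated CpG (ENSMUSG00000045322, chr9:106222598-106226883, plus strand), had 11.5, 9.78, 20.1 and 23.2 in BM_1, BM_3, BM_4 and BM_5, and 68.8, 66.6, 32.8 and 21.3 in SI_6, SI_7, SI_10 and SI_11. SI_11 lay within the range of bone marrow, so the tissues overlapped. SI_6 and SI_7, the highest, also had the largest sums of epithelial markers (32928 and 14098, against 4106 and 5590 in SI_10 and SI_11). The same held for B and plasma cell markers (2655 and 2130, against 427 and 1144) and macrophage markers (2762 and 2048, against 1777 and 2021). Sums of neutrophil and dendritic cell markers were lowest in SI_6 and SI_7. The part of these cells in this result was not tested. The mean rose from 16.2 ± 6.53 to 47.4 ± 23.9 (SD, n = 4 each), a difference of 1.30 ± 0.41 log2 units (SE; limma adjusted p = 0.0395). The call was lost without BM_1 (adjusted p = 0.106), BM_3 (0.112), BM_4 (0.0620), SI_6 (0.105), SI_7 (0.112) or SI_10 (0.0748), with differences between 1.08 and 1.41. The 250 bases before its start site (chr9:106222348-106222597, plus strand) held an ETS and an AP-1 match.
Tlr9: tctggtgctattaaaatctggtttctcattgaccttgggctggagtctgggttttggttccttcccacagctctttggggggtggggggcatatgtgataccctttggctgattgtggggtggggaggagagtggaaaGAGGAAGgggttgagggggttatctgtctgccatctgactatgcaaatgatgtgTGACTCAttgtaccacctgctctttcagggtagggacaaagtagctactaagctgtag

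Of the 4 receptors of the mouse family outside the 10, 2 rose. The shares called higher were 22.0% of all genes and 34.6% of those averaging 10 or more reads. Tlr3, a sensor of RNA duplexes, rose from 9.78 ± 4.69 to 73.0 ± 47.7 (SD, n = 4 each), a difference of 2.43 ± 0.43 log2 units (limma adjusted p = 0.00243), and its intestinal values of 143, 63.8, 43.8 and 41.5 in SI_6, SI_7, SI_10 and SI_11 were again highest in SI_6. An antisense gene, Gm45542, overlaps 381 exon bases of Tlr3, and reads of the pair cannot be told apart without strand. Tlr12, a receptor for profilin of protozoa, rose from 4.86 ± 4.44 to 23.6 ± 12.01 (SD, n = 4 each; difference 1.82 ± 0.43 log2 units, limma adjusted p = 0.0108), with 41.5 in SI_6 and 19.7 or less in the other intestinal libraries. Its call was lost with centring on the median of all genes (0.109) and with quantile normalisation (0.0819). Tlr8 (10.7 ± 2.93 and 9.44 ± 5.95, adjusted p = 0.625) and Tlr11 (3.98 ± 4.61 and 2.76 ± 3.39, adjusted p = 0.993) did not pass the limma test, and Tlr11 had no read in BM_1, BM_4 and SI_7.

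**Figure D2:**
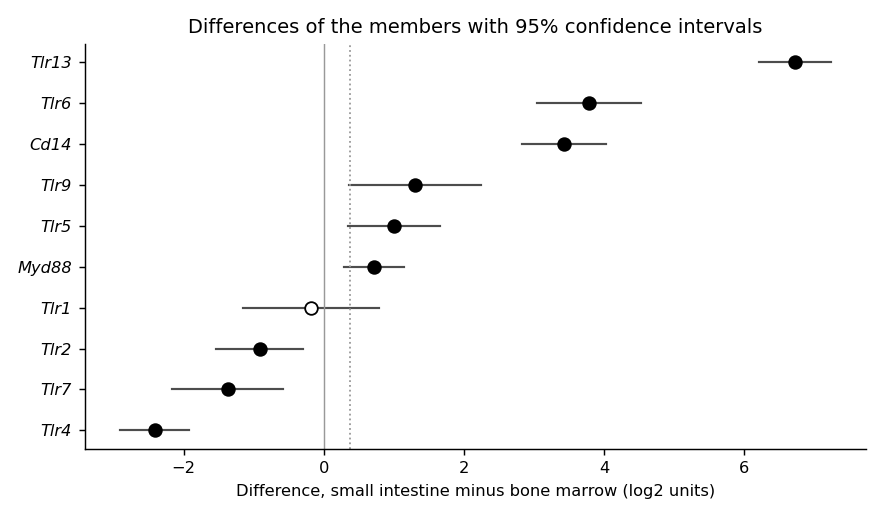
Difference of each of the 10 genes between small intestine and bone marrow in log2 units, with the 95% confidence interval of limma as a bar (n = 4 libraries each). Filled points passed an adjusted p of 0.05, the open point (Tlr1) did not, and the dotted line marks the median difference of all genes, 0.37.

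To compare receptors with each other, normalised counts were divided by the length of the gene's exons in kb. In bone marrow the order of the 10 genes by level per kb was Tlr4 (105 ± 10.1, SD, n = 4), Myd88 (98.6 ± 9.63), Tlr2 (32.6 ± 3.93), Tlr7 (27.9 ± 13.2), Tlr1 (17.9 ± 4.34), Tlr6 (16.2 ± 5.29), Cd14 (8.29 ± 0.929), Tlr13 (7.84 ± 1.74), Tlr9 (4.64 ± 1.88) and Tlr5 (1.27 ± 0.538). Neighbours in this order whose libraries did not overlap were Myd88 and Tlr2, Tlr6 and Cd14, and Tlr9 and Tlr5. In small intestine the order was Tlr13 (912 ± 146), Tlr6 (234 ± 60.4), Myd88 (164 ± 23.5), Cd14 (114 ± 38.3), Tlr4 (19.4 ± 4.50), Tlr1 (17.7 ± 11.8), Tlr2 (17.4 ± 5.64), Tlr9 (13.6 ± 6.88), Tlr7 (9.56 ± 2.23) and Tlr5 (3.16 ± 0.936). There the neighbours without overlap were Tlr13 and Tlr6, Cd14 and Tlr4, and Tlr7 and Tlr5.

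The leading receptor differed between the tissues. Of the summed level per kb of the 12 receptors, Tlr4 made up 44.8%, 45.5%, 53.7% and 46.0% in BM_1, BM_3, BM_4 and BM_5, and 1.51%, 1.35%, 1.96% and 1.38% in SI_6, SI_7, SI_10 and SI_11. Tlr13 made up 4.02%, 4.28%, 2.70% and 3.18% in the bone marrow libraries and 72.3%, 70.2%, 72.3% and 76.1% in the intestinal ones, in the same order. Such a share does not depend on the scaling between libraries. On average Tlr4 went from 47.5% ± 4.17 to 1.55% ± 0.283 and Tlr13 from 3.54% ± 0.731 to 72.7% ± 2.48 (SD, n = 4 each).

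The shares of the other receptors followed from this in part, since shares within a library sum to the whole. Tlr2 went from 14.8% ± 1.82 to 1.39% ± 0.423, Tlr7 from 12.6% ± 5.57 to 0.760% ± 0.111, Tlr1 from 8.15% ± 2.25 to 1.53% ± 1.24 and Tlr6 from 7.29% ± 2.18 to 18.5% ± 3.53 (SD, n = 4 each). The planned test took the 9 receptors with a mean share of at least 1% in a tissue, which Tlr7 and Tlr8 reached in bone marrow but not in small intestine. The exact 2-sided permutation p was 0.0286, the smallest that 70 assignments allow, for Tlr1, Tlr2, Tlr4, Tlr6, Tlr7, Tlr8 and Tlr13 (adjusted over 9 p = 0.0367). It did not pass for Tlr3 (exact adjusted p = 0.657) or Tlr9 (0.193). For Tlr1 (17.9 per kb in bone marrow, 17.7 in small intestine) and Tlr8 (2.98 and 2.63), the lower share does not show a lower level. Neither passed the limma test of the level. With no filter, a choice made after seeing the data, the same 7 of 12 passed (exact adjusted p = 0.0490), and Tlr5 (0.0857), Tlr9 (0.229), Tlr3 (0.717), Tlr11 and Tlr12 did not.

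Endosomal receptors together made up 27.3%, 21.0%, 14.2% and 24.3% of the level in BM_1, BM_3, BM_4 and BM_5, and 79.2%, 74.4%, 75.0% and 78.4% in SI_6, SI_7, SI_10 and SI_11 (means 21.7% ± 5.62 and 76.8% ± 2.38, exact permutation p = 0.0286). With Tlr13 left out of both the endosomal and the summed level, the means were 18.9% ± 5.45 and 14.7% ± 7.11 (exact permutation p = 0.371). The summed level of the 12 receptors went from 221 ± 8.31 to 1251 ± 168 per kb, and from 213 ± 7.63 to 339 ± 35.8 without Tlr13 (SD, n = 4 each; exact permutation p = 0.0286 for both).

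**Figure D3:**
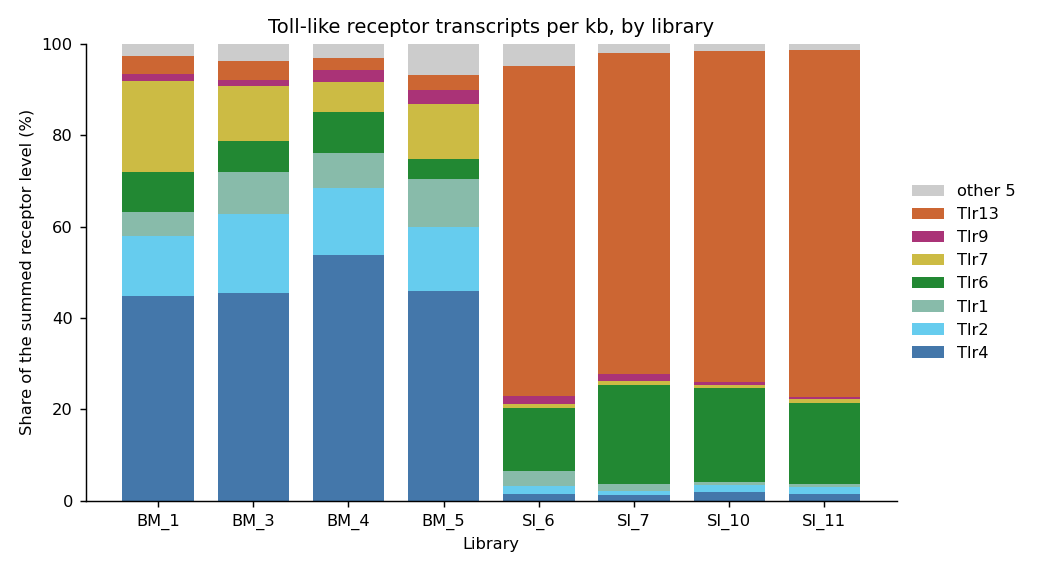
Share of each receptor in the summed level per kb of 12 Toll-like receptors, in percent (stacked to 100), for each bone marrow (BM) and small intestine (SI) library. Tlr4 made up between 44.8% and 53.7% in bone marrow, and Tlr13 between 70.2% and 76.1% in small intestine.

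Ratios between transcripts whose proteins work together were taken within each library and compared on the log2 scale over 6 ratios. The ratio of Cd14 to Tlr4 per kb was -3.54, -3.47, -3.85 and -3.79 in BM_1, BM_3, BM_4 and BM_5, and 2.34, 2.39, 2.66 and 2.68 in SI_6, SI_7, SI_10 and SI_11. Tlr4 was thus the more abundant of the pair in every bone marrow library and Cd14 in every intestinal library. The ratio differed by 6.18 log2 units, or 72.6-fold (exact permutation p = 0.0286, adjusted 0.0343). Ly96 to Tlr4 differed by 4.27 (-3.48 ± 0.27, n = 3, against 0.79 ± 0.65, n = 4; exact permutation p = 0.0286 over 35 assignments, adjusted 0.0343), with BM_1 left out because it had under 3 reads of Ly96.

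The balance of the Tlr2 partners moved toward Tlr6. The log2 ratio of Tlr2 to Tlr6 was 0.57, 1.34, 0.69 and 1.67 in BM_1, BM_3, BM_4 and BM_5, and -2.99, -4.78, -3.86 and -3.46 in SI_6, SI_7, SI_10 and SI_11, a difference of -4.84 (exact permutation p = 0.0286, adjusted 0.0343). The ratio of Tlr1 to Tlr6 differed by -4.08 (0.17 ± 0.87 and -3.91 ± 1.31, SD, n = 4 each; exact permutation p = 0.0286, adjusted 0.0343). The ratio of Tlr2 to Tlr1 was 0.90 ± 0.38 and 0.13 ± 1.23 (exact permutation p = 0.343, adjusted 0.343), and its intestinal libraries were split between -0.92 in SI_6 and SI_7 and 0.92 and 1.45 in SI_10 and SI_11. Myd88 fell by 1.77 on the log2 scale relative to the 12 receptors summed (-1.17 ± 0.17 and -2.94 ± 0.20; exact permutation p = 0.0286, adjusted 0.0343). With Tlr13 left out of the sum the ratio was -1.12 ± 0.16 and -1.06 ± 0.25 (difference 0.06, exact permutation p = 0.686).

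**Figure D4:**
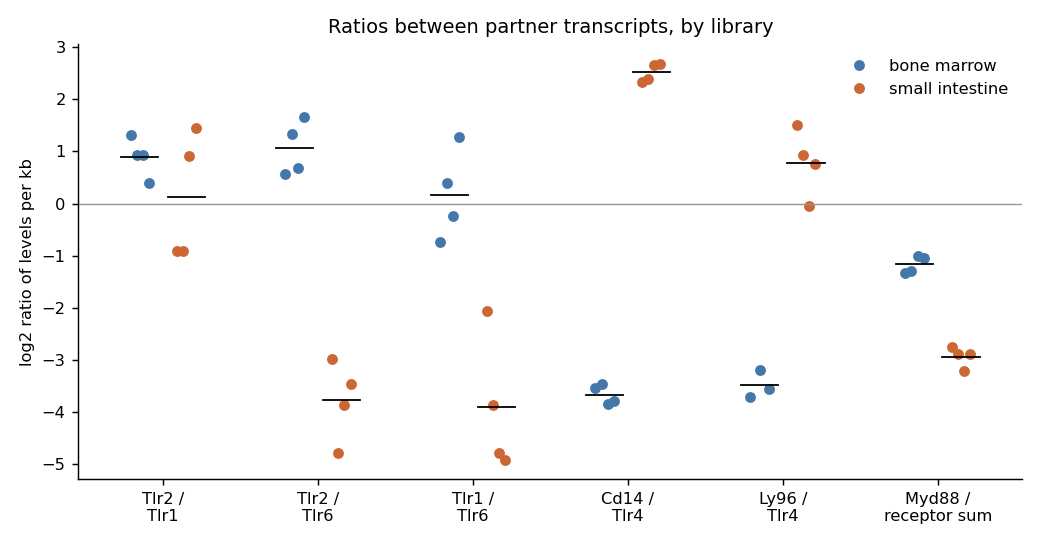
log2 ratios of levels per kb between partner transcripts in each library, with bone marrow in blue, small intestine in orange and a line at the mean. The receptor sum is that of 12 receptors. A ratio of 0 means equal levels. Cd14 to Tlr4 was between -3.85 and -3.47 in bone marrow and between 2.34 and 2.68 in small intestine.

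Myd88, the adaptor shared by these receptors (ENSMUSG00000032508, chr9:119335934-119341411, minus strand), had normalised counts of 237, 231, 284 and 264 in BM_1, BM_3, BM_4 and BM_5, and 397, 424, 361 and 504 in SI_6, SI_7, SI_10 and SI_11. The tissues did not overlap. It was higher in small intestine (254 ± 24.8 and 422 ± 60.6, SD, n = 4 each) by 0.72 ± 0.19 log2 units (SE; limma adjusted p = 0.0179), in all 17 alternative settings but centring on the median of all genes, where the difference was -0.18. With centring on genes averaging 10 or more reads, the difference was 0.65 and the call was lost (adjusted p = 0.0510). Exons of Acaa1a on the other strand share 290 bases, or 11.3%, with those of Myd88. Acaa1a had between 236 and 280 in bone marrow and between 318 and 416 in small intestine, and without strand the reads of the shared bases cannot be told apart. The 250 bases before the Myd88 start held an interferon response match that began 40 bases before it.

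The rest of the pathway was described from a list of 52 further genes in 8 groups by role. Of these, 29 rose, 8 fell and 15 did not pass the limma test (71.2% called, with a median difference of 0.70 log2 units). Of all genes averaging 10 or more reads, as 50 of the 52 did, 63.1% were called (34.6% higher, 28.6% lower), and the counts of each group below stand against these shares. With centring on the median of all genes 12 rose and 16 fell, against 4285 and 10216 of all 38392 genes. In the group of TIR adaptors, Pik3ap1, a scaffold that binds phosphoinositide 3-kinase, rose from 791 ± 84.4 to 9969 ± 1752 (SD, n = 4 each), a difference of 3.64 ± 0.20 log2 units (limma adjusted p = 4.65e-06). Tirap, the bridge between Tlr2 or Tlr4 and Myd88, was 671 ± 82.3 and 538 ± 57.3 (adjusted p = 0.240). Ticam1, the adaptor of Tlr3, was 390 ± 49.2 and 279 ± 59.6 (limma adjusted p = 0.119, and 0.0273 without SI_6), and Ticam2, which joins Ticam1 to Tlr4, was 149 ± 25.3 and 86.2 ± 31.3 (0.0600, and 0.0248 without SI_7). Sarm1 was at 13.1 or below in every library, with means of 2.09 ± 2.04 and 8.46 ± 3.48 (limma adjusted p = 0.0394, lost without BM_1, BM_4, BM_5, SI_6, SI_7 or SI_10 with values from 0.0514 to 0.127).

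Genes of receptor traffic and folding went in both directions, with 2 of 6 higher and 4 lower. Unc93b1, the escort that nucleic acid receptors need to leave the endoplasmic reticulum, was 1342, 1137, 1004 and 941 in BM_1, BM_3, BM_4 and BM_5, and 506, 531, 384 and 522 in SI_6, SI_7, SI_10 and SI_11. It fell by 1.18 ± 0.21 on the log2 scale (SE; limma adjusted p = 0.00229), the tissues did not overlap, and Tlr13 was 116-fold higher in the same libraries. Cnpy4 fell from 395 ± 71.4 to 74.6 ± 14.2 (adjusted p = 9.59e-05). Cnpy3, a chaperone that helps several receptors fold, rose from 870 ± 98.1 to 1546 ± 253 (limma adjusted p = 0.0130), with a difference of 0.82 that turned to -0.08 with centring on the median of all genes. Of 5 lysosomal proteases that cleave endosomal receptors, 4 rose and Ctsb fell (3766 ± 610 and 1255 ± 316, adjusted p = 0.00105). Lgmn, an asparaginyl endopeptidase, rose the most of them, from 21.0 ± 5.12 to 403 ± 85.0, a difference of 4.05 ± 0.23 log2 units (limma adjusted p = 6.23e-06).

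Among 14 kinases and ubiquitin ligases downstream of the adaptors, 8 passed the test, 7 higher and Ikbke lower. That is 57.1%, against 63.1% of all genes averaging 10 or more reads. Irak2, a kinase of the complex built on Myd88, rose from 307 ± 61.9 to 3727 ± 634 (SD, n = 4 each), a difference of 3.59 ± 0.23 log2 units (limma adjusted p = 1.03e-05). Irak4, the kinase that Myd88 binds directly, was 677 ± 104 and 1005 ± 153 (adjusted p = 0.0612, and 0.0291 without SI_10). Irak1 was 1220 ± 85.1 and 903 ± 48.2 (limma adjusted p = 0.0809, and between 0.0154 and 0.0479 without BM_5, SI_6, SI_7 or SI_10), and Traf6 was 979 ± 30.5 and 1111 ± 128 (adjusted p = 0.476). Ikbke, a kinase of the interferon branch, fell from 1268 ± 85.3 to 135 ± 28.8, a difference of -3.21 ± 0.20 log2 units (limma adjusted p = 9.20e-06).

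Negative regulators and transcription factors of the pathway made up the last groups. Tnfaip3, a deubiquitinase that is itself a target of NF-kappaB, was 356, 205, 260 and 257 in BM_1, BM_3, BM_4 and BM_5, and 36942, 43827, 56348 and 59427 in SI_6, SI_7, SI_10 and SI_11, a 182-fold rise of 7.49 ± 0.25 log2 units (limma adjusted p = 4.77e-07). Of 8 negative regulators 5 rose, and Sigirr, an inhibitory receptor with a TIR domain, fell from 56.8 ± 20.8 to 21.7 ± 10.1 (limma adjusted p = 0.0338, lost without BM_1, BM_3, BM_4, SI_7, SI_10 or SI_11 with values from 0.0502 to 0.104). Of 5 transcription factors 4 rose. Irf5, which Myd88 recruits, was between 24.1 and 29.1 in bone marrow and between 865 and 1285 in small intestine (5.17 ± 0.19 log2 units, limma adjusted p = 8.09e-07). The genes that respond to tissue dissociation rose in the same libraries, as given above, and their part in these differences was not tested.

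**Figure D5:**
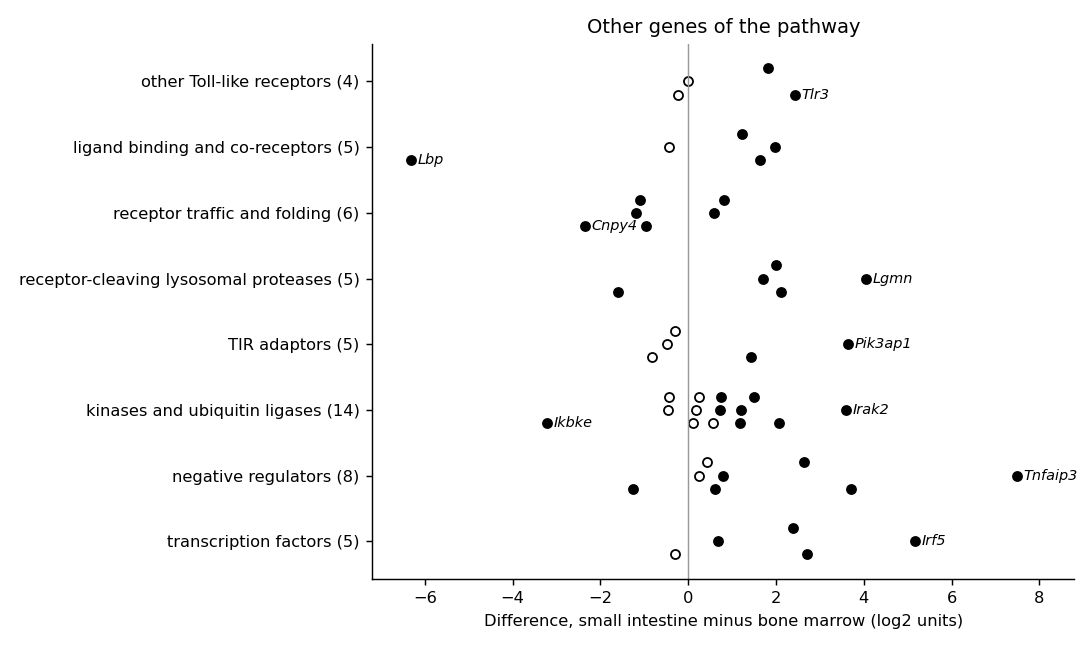
Differences of 52 other genes of the pathway between small intestine and bone marrow in log2 units, by role, with the number of genes of each group in brackets. Filled points passed a limma adjusted p of 0.05 and open points did not. Among the labelled genes, Tnfaip3 was the highest at 7.49 and Lbp the lowest at -6.32.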

How the data were processed

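RNA from cells sorted as eosinophils was amplified to cDNA (NuGEN Ovation). It was read from a single end on an Illumina HiSeq 4000, with 4 libraries per tissue. The authors aligned the reads to GRCm38, counted them per gene and applied the variance stabilisation of DESeq2 (R 4.0.3 per the labels), and the values they deposited are on a log2-like scale. Which aligner and strand setting were used, and how reads with several matches were treated, is not given in the sources used here. Columns of the table gave the tissue but no single sample, so libraries are named by column.

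The transformation was inverted from its lowest value, 0.930. Times a size factor fitted for this, 100% of the values below a fixed read limit were whole reads within 0.05. Larger values were rounded to whole reads without this check. limma 3.58.1 (R 4.3.3, constant prior, no covariate, no filter) compared the deposited values of all 8 libraries, since the unit is log2. Differences are small intestine minus bone marrow, and SE is limma's. Shares and ratios used GENCODE M21 exon lengths and exact 2-sided permutation tests over 70 assignments, adjusted within each family. Ratios needed at least 3 reads of each gene per library. Alternatives were other scalings, tests, pseudocounts of 1 and 5, a filter, other lengths and leaving out each library. Testing shares without a filter, and Myd88 against receptors without Tlr13, were chosen after seeing the data.

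The members and lists were chosen with earlier results of these data known. Named were the 10 members, the other receptors, TIR adaptors, Ly96, Unc93b1 and the largest rise and fall among called genes of each other group. Irak1, Irak4, Traf6 and Cd180 were added after their values were seen. The other marker lists (neutrophil, dendritic, B and plasma, T, and mast cells) are in the closing section. Python 3.11.15, pandas 2.3.3, scipy 1.17.1 and matplotlib 3.10.9 were used.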

Additional observations from a re-analysis of the deposited data

Results flagged for a closer look

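In groups of 4 libraries, a library was marked when its gap to the nearest other divided by the range of the group exceeded Dixon's 95% critical value. Chance marks about 1 in 20 groups, or 5.05 of the 101 examined, and 7 were marked. In small intestine, SI_6 was the highest for Tlr5 (21.8, gap 0.931 of the range) and Tlr12 (41.5, 0.876) and the lowest for Tlr6 (535, 0.895). SI_6 also had the largest intestinal sums of epithelial, macrophage, and B and plasma cell markers. SI_10 was the lowest for Unc93b1 (384, 0.832). In bone marrow, BM_1 was the highest for Ticam2 (187, 0.964), BM_5 the lowest for Cnpy4 (288, 0.925) and BM_4 the highest for the share of Tlr4 in the receptor level (53.7%, 0.863).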

How the results depend on the processing

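The differences of Tlr4, Tlr6, Tlr13 and Cd14 kept their direction and call in all 17 alternative settings. Against a difference of 1 log2 unit (limma treat), 4 of the 10 members passed (3 higher, 1 lower) and 16 of the other 52 genes (13 higher, 3 lower). Of all 38392 genes, 5076 passed that test (3460 higher, 1616 lower). With centring on the median of all genes 3 members were called higher, and of the 52 genes 12 rose and 16 fell. Of all 38392 genes, 4285 rose and 10216 fell in that setting. With only genes of a mean of at least 10 reads tested, 13 of the 52 were lower, against 5462 of the 16215 genes tested. Leaving out 1 library gave 6 to 9 members called (4 to 6 higher, 1 to 3 lower) and 33 to 40 of the 52 (26 to 29 higher, 7 to 11 lower). Over all 38392 genes, leaving out 1 library gave 10982 to 14670 called (6701 to 9596 higher, 4281 to 5166 lower). Without SI_10, Tlr4 was the only member called lower. Signs turned for Myd88 (-0.18), Cnpy3 (-0.082), Irak4 (-0.33) and Traf6 (-0.73) with centring on the median of all genes. They turned for Tlr11 with voom (0.25) and without BM_3 (0.44), BM_5 (0.40), SI_7 (0.42) or SI_11 (0.049), and for Tlr1 without SI_10 (0.013) or SI_11 (0.075), with ranges over single left-out libraries of -0.44 to 0.44 and -0.55 to 0.075. The log2 ratio of Myd88 to the summed receptors turned to 0.059 with Tlr13 left out of the sum. Beyond what that shows, the cause was not tested. Without 1 library the differences in share were 68.04 to 70.02 points for Tlr13, -46.8 to -43.9 for Tlr4 and 52.5 to 56.9 for endosomal receptors, given as values only. Other gene lengths, or no division by length, kept every call of shares and ratios. No paired analysis was possible because no replicate number occurs in both tissues. Mean reads per library were 10.1 for Tlr5, 10.4 for Tlr8, 3.88 for Tlr11, 13 for Tlr12, 5 for Sarm1 and 19.1 for Ly96.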

Other observations

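The other marker lists gave these sums of normalised counts. Mature neutrophil markers were between 941 and 1701 in bone marrow and between 38277 and 55078 in small intestine (2 of 5 higher, 1 lower), nearly all of it Retnlg. Dendritic cell markers were between 99.8 and 216 and between 227 and 324 (3 of 6 higher, 1 lower). B and plasma cell markers were between 245 and 404 and between 427 and 2655 (1 of 6 higher, 2 lower), with Jchain between 353 in SI_10 and 2505 in SI_6. T cell markers were between 26.8 and 58.6 and between 42.7 and 85.3 (1 of 5 higher). Mast cell and basophil markers were between 127 and 199 and between 16.6 and 42.7 (2 of 6 lower). The part of these cells in the results was not tested.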
